A study of Arabidopsis thaliana with 6 samples.

Results

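The genes described here gave little array signal in wild-type Arabidopsis leaves and a clear signal in leaves of the chr11-1 chr17-1 double mutant. They were chosen on the measured values: the mean of the 3 wild-type arrays lay below a log2 level of 5.5 and the mean of the 3 mutant arrays at or above 6.5. Of 13356 genes with a probe set that matches 1 gene, 42 met both limits, and 36 of these are described. The other 6 (CHI, ATG8B, CYP84A4, AT3G28500, AT2G37130 and AT3G47480) were left out by name. Because both limits were set on the genotype contrast, the difference between genotypes in these genes is a description and carries no test.

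RNA came from leaves of 15-day-old untreated plants grown at 21°C with 16 h of light and 8 h of dark. One group was wild type Col-0 and the other carried both the chr11-1 and the chr17-1 alleles, with 3 single-colour ATH1 arrays each, as the labels number them. The nature of the alleles, the number of plants per sample and whether a genotype's 3 arrays stem from separate plants stay unstated in the sources used here. The p-values therefore measure only sample-to-sample spread, which may be technical. The values are the authors' log2 expression levels per probe set, and the number of arrays limits their precision.

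CHR11 and CHR17 encode ISWI-type ATPases, motors that slide nucleosomes and keep them evenly spaced along genes. Genes that are silent or weakly transcribed in a leaf can be held in that state by their chromatin, by absent activators or by rapid RNA turnover, and the array reads the resulting RNA level. In whole leaves, more cells with a transcript and more transcript per cell cannot be told apart.

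Array medians lay between 4.73 and 4.77, and CHR17 had a log2 difference of 0.34 (SE 0.13) between mutant and wild type that did not pass limma (Benjamini-Hochberg adjusted p = 0.0832). It passed without mutant replicate 2 (0.44, limma adjusted p = 0.0406; 0.0406 to 0.265 over the alternatives). CHR11 was not analysed here. A gene is called measured here if the series' probe table matches a probe set to it alone. Genes not called measured may still have probe sets on the array, which were not read. Of 10 leaf photosynthesis markers 2 were measured, both near the top of the range in both genotypes. LHCB4.2 rose from 12.95 to 13.50 (limma adjusted p = 0.000747). RCA read 13.90 in wild type against 13.67 in the mutant and did not pass (limma adjusted p = 0.0694; 0.00317 to 0.211 over the alternatives), but it passed as lower after quantile normalization (0.0454) and with a trended robust prior (0.00317). The control for 25S ribosomal RNA gave 8.90 on mutant replicate 1, against 10.32 to 10.85 on the other 5 arrays. Without that array the rule gave 36 genes, 35 of them among the 36 described.

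Wild-type means of the 36 genes ran from 4.05 to 5.48, with a median of 4.91, beside array medians of 4.73 to 4.77. Their mutant means ran from 6.52 to 8.54, with a median of 7.10. The 36 genes thus moved from around the 57.1th percentile of genes by level in wild type to around the 79.5th percentile in the mutant, taking medians. The fold of array signal was 2.35 to 18.7, with a median of 4.87. It was at least 8 in 8 genes and at least 4 in 22 genes. In 10 of the 36 the wild-type mean lay below the median of every array, and background was not measured, so a fold here compares array signal, which can differ from the fold in transcript.

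**Figure D1:**
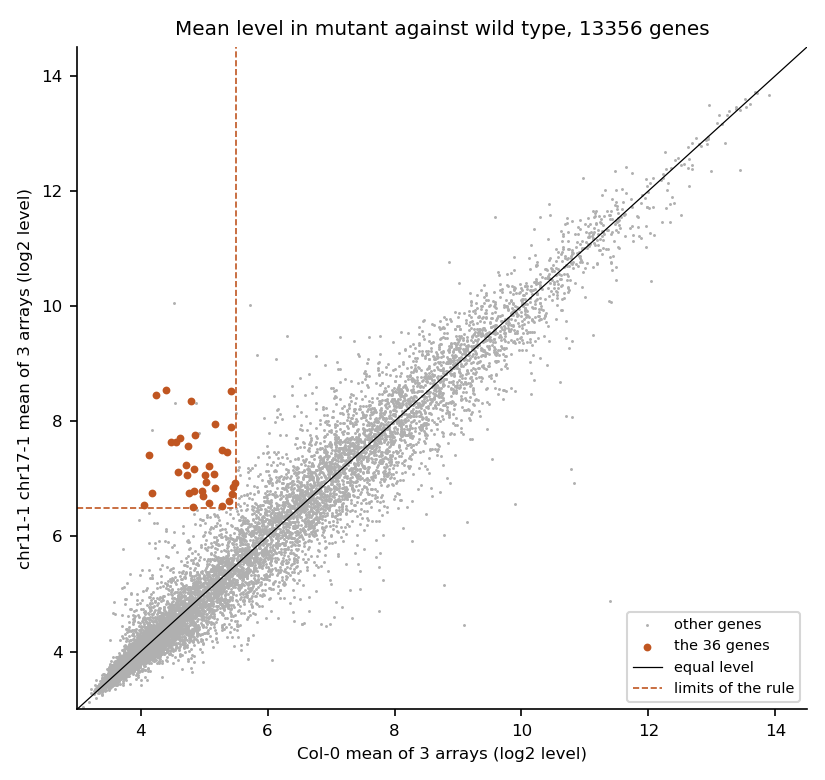
Each point is 1 gene, with its wild-type mean of 3 arrays on the x axis and its mutant mean of 3 arrays on the y axis, both as log2 levels, for 13356 genes. The 36 genes (orange) sit inside the dashed limits at 5.5 and 6.5, and the grey points inside them are the 6 genes left out by name.

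Reaching such a level was uncommon among dim genes. Of 8527 genes with a wild-type mean below 5.5, 8252 also had a mutant mean below 5.5, 233 had one from 5.5 up to 6.5, and 42 reached 6.5. Among those 8527 genes, 6.58% were higher and 5.01% lower in the mutant by limma at an adjusted p below 0.05. All 36 genes passed limma as higher in the mutant, against 12.5% of all genes and 14% of all probe sets, and in all 36 the mutant arrays lay above the wild-type arrays, against 17.8% of all genes. Both counts follow from how the genes were chosen.

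The narrowest gap between the lowest mutant array and the highest wild-type array was 1.04, and the widest was 3.88. Every wild-type array was below 5.5 in 31 of the 36 genes, and every mutant array was at or above 6.5 in 31. Mutant replicate 1 was the highest of the 3 in 15 genes, replicate 2 in 9 and replicate 3 in 12. Replicate 1 was the lowest of the 3 in 9 genes, replicate 2 in 14 and replicate 3 in 13. The median level of the 36 genes was 7.25, 7.05 and 7.11 on mutant replicates 1, 2 and 3, and 4.83, 4.85 and 4.98 on the wild-type arrays. The median SD over 3 arrays was 0.14 for wild type and 0.18 for the mutant, beside 0.11 and 0.12 over all genes.

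Near the limits, genes inside and outside had almost equal levels. Just inside the wild-type limit were AT5G03230 (5.48), DPL1 (5.46) and AT1G66880 (5.44), and just outside among genes at least 2-fold higher were AT5G57340 (5.51), AT1G76240 (5.53) and AT2G39420 (5.53). At the mutant limit, AT1G10690 (6.52), AT3G52710 (6.54) and AT1G43590 (6.55) were inside, while SIS (6.498), AT5G17600 (6.48) and AT4G01700 (6.47) were outside.

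**Figure D2:**
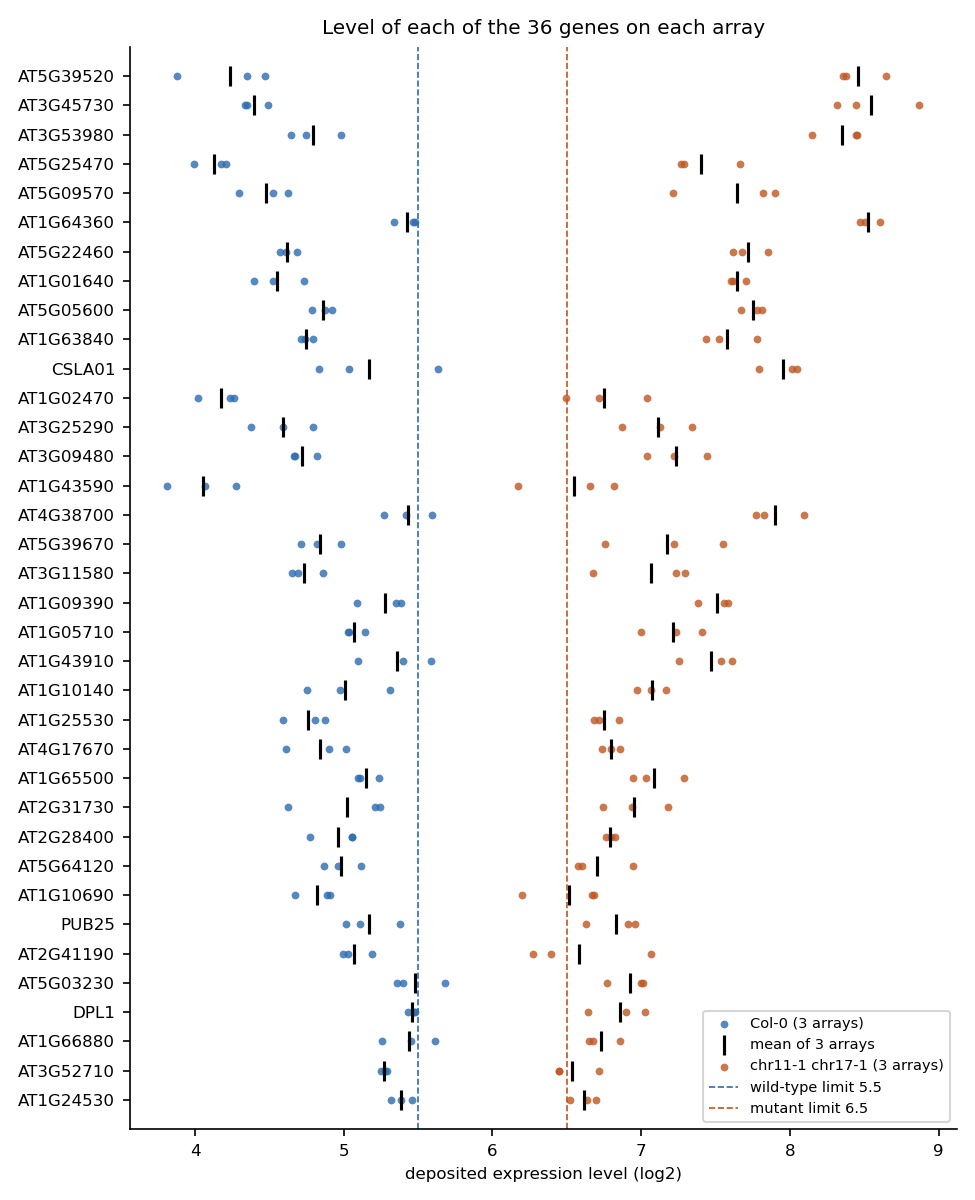
Log2 level on each of the 6 arrays for the 36 genes, ordered by the difference between genotypes, with blue points for Col-0, orange points for chr11-1 chr17-1 and black bars for the mean of 3 arrays. The groups do not overlap in any row, and the spread within a genotype is small beside the gap for the genes at the top.

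Of the 36 genes, 4 carry a name in the annotation used here (CSLA01, PUB25, DPL1 and AT5G64120), and AT1G43590 is annotated as a pseudogene. The other protein-coding genes have only a locus code there, so no role is given for them.

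CSLA01 encodes a cellulose synthase-like protein of group A, a group that includes glucomannan synthases of the cell wall. It read 5.64, 4.83 and 5.04 on the wild-type arrays and 7.79, 8.02 and 8.05 on the mutant arrays, a 6.88-fold difference. Wild-type replicate 1 stood 0.60 above the next wild-type array, and the groups were still 2.15 apart. In a list of 9 genes of this group 2 were measured. CSLA03, the other one, had 6.59 and 6.498 and did not pass limma (adjusted p = 0.59).

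PUB25 encodes a U-box ubiquitin ligase, an enzyme that tags other proteins for breakdown. It read 5.11, 5.38 and 5.02 in wild type against 6.91, 6.63 and 6.96 in the mutant, 3.17-fold higher. The group of PUB22 to PUB26 was written down as a list once the 36 genes were known, so its counts are descriptions. Of the 4 measured genes of that group other than PUB25, 1 rose, 1 fell and 2 did not pass, with a median difference of 0.016, beside -0.0032 over all genes, of which 12.5% were higher and 13.1% lower. PUB26 rose from 5.67 to 6.47 (limma adjusted p = 0.00082). PUB23 fell by 0.36 (limma adjusted p = 0.0169; 0.00979 to 0.0722 over the alternatives), and this call was lost on leaving out wild-type replicate 2 (0.0722) or mutant replicate 2 (0.0702), and with the replicate number as a block (0.0501). PUB22 had -0.12 and PUB24 0.16, neither past limma.

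DPL1 encodes the lyase that breaks down phosphorylated sphingoid bases, the backbone of sphingolipids. It read 5.48, 5.47 and 5.43 in wild type against 7.02, 6.65 and 6.90 in the mutant. The wild-type arrays spanned only 0.04 and lay just under the limit. LCB2, a subunit of the serine palmitoyltransferase that opens sphingolipid synthesis, had 7.09 and 6.83 and did not pass limma (adjusted p = 0.077). AT5G64120, whose annotated name is PRX71, a peroxidase, read 5.12, 4.87 and 4.96 against 6.60, 6.57 and 6.94. Class III peroxidases act on cell wall phenolics and on hydrogen peroxide. Its groups were 1.46 apart, with mutant replicate 3 the highest.

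The pseudogene AT1G43590 read 4.07, 4.27 and 3.81 in wild type against 6.81, 6.17 and 6.66 in the mutant, 5.64-fold higher. It had the lowest wild-type mean of all 36 genes, and its mutant replicate 2 was below 6.5.

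The genes with only a locus code include all 8 with a difference of at least 8-fold. AT5G39520 read 4.47, 3.88 and 4.35 in wild type against 8.38, 8.65 and 8.36 in the mutant, 18.7-fold higher. AT3G45730 read 4.34, 4.35 and 4.49 in wild type against 8.31, 8.44 and 8.87 in the mutant, 17.7-fold higher. In both, the lowest mutant array was over 3 log2 units above the highest wild-type array, with gaps of 3.88 and 3.82. AT3G53980 read 4.75, 4.64 and 4.98 against 8.45, 8.44 and 8.15 (11.8-fold). AT5G25470 read 4.18, 3.99 and 4.21 against 7.66, 7.29 and 7.26 (9.70-fold). These 4 genes had low wild-type means, from 4.13 to 4.79, and gaps of at least 3.05 between the groups.

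AT5G09570 read 4.52, 4.30 and 4.62 in wild type against 7.90, 7.82 and 7.22 in the mutant, with replicate 3 the low mutant array (8.96-fold). AT1G64360 read 5.48, 5.34 and 5.46 against 8.47, 8.51 and 8.60 (8.58-fold). It started close to the wild-type limit and reached the second highest mutant mean of the 36 genes. AT5G22460 read 4.68, 4.61 and 4.57 against 7.85, 7.62 and 7.68 (8.55-fold). AT1G01640 read 4.52, 4.73 and 4.40 against 7.60, 7.62 and 7.71 (8.53-fold). The last 3 had mutant arrays within 0.23 of each other, so their differences were large beside the spread.

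A further 14 genes had differences of 4-fold up to 8-fold, CSLA01 and the pseudogene among them. AT5G05600 read 4.92, 4.87 and 4.79 in wild type against 7.67, 7.81 and 7.78 in the mutant, 7.44-fold higher with an SD of 0.07 in both genotypes. AT1G63840 read 4.74, 4.80 and 4.71 against 7.52, 7.78 and 7.43 (7.11-fold). Both were tightly grouped in wild type. AT1G02470 read 4.26, 4.02 and 4.24 against 6.72, 6.497 and 7.04 (5.97-fold). AT3G25290 read 4.38, 4.59 and 4.79 against 7.34, 7.12 and 6.87 (5.75-fold). AT3G09480 read 4.67, 4.67 and 4.82 against 7.44, 7.04 and 7.22 (5.72-fold). In these 3 genes the groups stayed over 2 log2 units apart, although the mutant arrays were more spread than the wild-type arrays.

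AT4G38700 started high, at 5.27, 5.59 and 5.42, and read 7.83, 7.77 and 8.09 in the mutant (5.53-fold). AT5G39670 read 4.72, 4.82 and 4.98 against 7.22, 7.55 and 6.76 (5.05-fold). Its mutant range of 0.79 was, with that of AT2G41190 (also 0.79), the widest of the 36. AT3G11580 read 4.69, 4.65 and 4.86 against 7.29, 6.68 and 7.24 (5.04-fold), with mutant replicate 2 the low array and still 1.81 above the highest wild-type array. AT1G05710 read 5.03, 5.14 and 5.04 against 7.41, 6.996 and 7.24 (4.43-fold). The remaining 3 of this size had wild-type and mutant means of 5.27 ± 0.16 and 7.51 ± 0.11 for AT1G09390, 5.36 ± 0.25 and 7.47 ± 0.19 for AT1G43910, and 5.01 ± 0.28 and 7.07 ± 0.10 for AT1G10140 (SD, n = 3). In AT1G43910 and AT1G10140 the wild-type spread was larger than the mutant spread.

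The other 14 genes, PUB25, DPL1 and AT5G64120 included, differed by less than 4-fold. AT1G25530 had means of 4.76 ± 0.15 and 6.75 ± 0.09, and AT1G65500 of 5.15 ± 0.08 and 7.09 ± 0.18 (SD, n = 3). AT4G17670 read 4.61, 5.01 and 4.90 in wild type against 6.79, 6.86 and 6.74 in the mutant (3.88-fold). AT2G28400 read 5.06, 4.77 and 5.06 against 6.80, 6.82 and 6.76 (3.56-fold), and its mutant arrays spanned 0.06, the smallest range among the 36 genes. AT2G31730 read 4.62, 5.25 and 5.21 against 7.18, 6.74 and 6.94 (3.804-fold), with wild-type replicate 1 the low array. The groups in these 5 genes were over 1 log2 unit apart.

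Several genes of this size sat on a limit. AT1G10690 read 4.67, 4.89 and 4.91 in wild type against 6.20, 6.67 and 6.68 in the mutant, so replicate 1 was below the limit of 6.5 that the mean passed. AT2G41190 read 5.03, 4.99 and 5.19 against 6.40, 7.07 and 6.28, with 2 mutant arrays below 6.5, and replicate 2 carried the mean over the limit. AT5G03230 read 5.36, 5.40 and 5.68 against 6.77, 6.998 and 7.01, so wild-type replicate 3 was above 5.5. AT1G66880 (5.44 ± 0.18 and 6.73 ± 0.11), AT3G52710 (5.27 ± 0.02 and 6.54 ± 0.16) and AT1G24530 (5.39 ± 0.07 and 6.62 ± 0.09) had the smallest differences, of 2.44-fold, 2.40-fold and 2.35-fold (SD, n = 3). Even there the lowest mutant array stood 1.04 or more above the highest wild-type array.

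In a list of 12 senescence-linked genes, 3 were measured and 2 rose, where 12.5% of all genes and 6.58% of genes with a wild-type mean below 5.5 were higher. SAG29, a sugar transporter gene, rose from 4.09 to 5.10 (limma adjusted p = 0.000298) and WRKY6, a transcription factor gene, from 4.72 to 5.63 (0.000525). WRKY53 went from 5.01 to 5.24 and did not pass (0.0809). All 3 were dim in wild type, and in the mutant all 3 read below the level of 6.5 that the 36 genes reached. Of 18 genes in the salicylate-linked list 2 were measured and 1 rose, beside the same shares. GRX480, a glutaredoxin gene, rose from 5.01 to 6.08 (limma adjusted p = 1.98e-05). The other, SAG101, acts in defence and had a difference of -0.06 (adjusted p = 0.764).

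None of the 36 genes lay within 10 annotated genes of another one. Chromosome 1 held 15 of them (41.7%, beside 25.8% of measured nuclear genes), chromosome 2 held 3, chromosome 3 held 7, chromosome 4 held 3 and chromosome 5 held 8. Among the 100 measured genes nearest to CHR11 there were 0, and likewise 0 for CHR17. With 36 among 13356 measured genes, any 100 would hold few or none. Nothing is therefore read from these counts or from the lack of near pairs. The median gene length was 1772 bp, with a range of 507 to 8767 bp, beside a median of 2111 bp over measured nuclear genes. Length was not compared with that of other dim genes.

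Genes directly next to the 36 were read as well, since the rule did not use them. Only 21 of the 36 had a measured adjacent gene, and 9 had one that rose. Of 32 adjacent genes measured, 11 rose (34.4%) and 5 fell (15.6%), beside 12.5% and 13.1% of all genes. Brighter genes pass limma more often, so the counts are also given by level. Of the 17 adjacent genes with a mean level of at least 5.5, 10 rose (58.8%) and 4 fell (23.5%). Among all genes at that level 25.6% rose and 25.05% fell. Of the 15 dimmer ones 1 rose and 1 fell (6.67% each), beside 5.14% and 6.33% of all dimmer genes. The cause of the larger share of rises was not tested. The count of 11 was not planned, and it became 6 on leaving out wild-type replicate 3, and 6 on leaving out mutant replicate 3. Over all probe sets, 2726 and 2880 were higher in those settings, against 3178 with all 6 arrays. The larger share of rises thus depended on single arrays. Within 10 genes on either side, 14.1% of 276 genes rose and 11.96% fell, close to the share over all genes.

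The adjacent changes were mostly small. The largest rise was that of AT1G65490, next to AT1G65500, from 10.45 to 11.58 (limma adjusted p = 2.97e-05). Both measured neighbours of AT3G53980 rose, AT3G53970 by 0.77 (limma adjusted p = 0.00231) and AT3G53990 by 0.48 (0.0168; 0.00165 to 0.0654 over the alternatives). The call for AT3G53990 was lost on leaving out wild-type replicate 3 (limma adjusted p = 0.0654) or mutant replicate 3 (0.0509). Falls occurred beside strongly raised genes too: AT1G43580, next to the pseudogene AT1G43590, fell by 1.02 (limma adjusted p = 0.000115), AT4G38710, next to AT4G38700, fell by 0.84 (0.00142), and AT5G22450, next to AT5G22460, fell by 0.70 (0.00101). Other neighbours of strongly raised genes did not pass with all 6 arrays: AT5G25475, next to AT5G25470, had a difference of 0.28 (limma adjusted p = 0.0677; 0.0224 to 0.199 over the alternatives) and passed as higher without mutant replicate 2 (0.0224), and AT1G02475, next to AT1G02470, one of 0.16 with means of 10.07 and 10.23 (0.314). The other gene next to AT4G38700 rose by 0.34 (limma adjusted p = 0.0238). Genes beside the 36 thus included rises, falls and neither. Those named are only some of the 11 that rose and the 5 that fell.

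**Figure D3:**
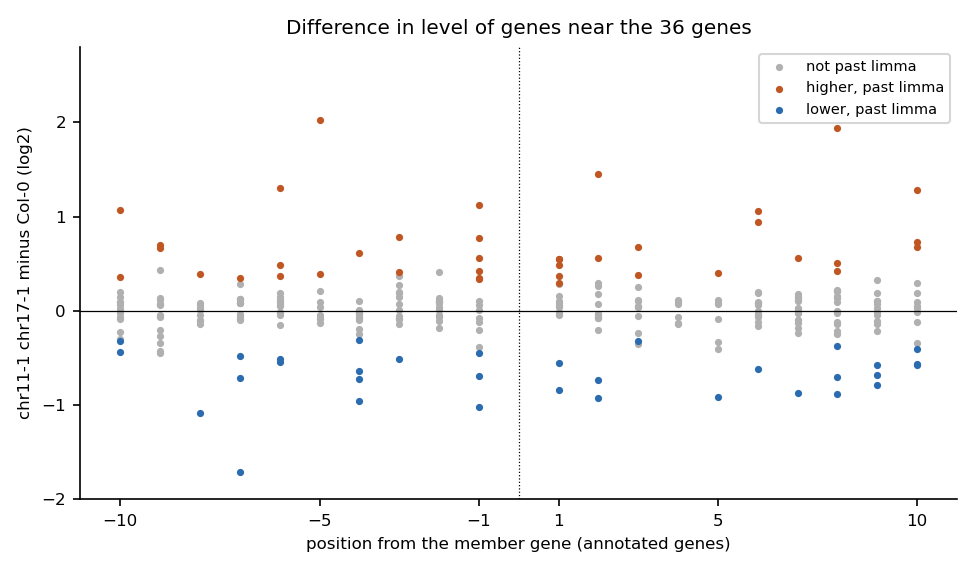
Each point is a measured gene up to 10 annotated genes from 1 of the 36 genes, placed by its position in gene order (x axis) and its log2 difference, chr11-1 chr17-1 minus Col-0 (y axis). Orange points rose and blue points fell by limma, grey points did not pass. At positions -1 and 1 there are 11 orange and 5 blue points, and most lie between -1 and 1.

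The measured markers of other tissues did not pass limma and were dim in both genotypes, apart from PYK10. The root genes EXPA7, EXPA18 and PYK10 had differences of -0.09, 0.03 and -0.28, at wild-type levels of 4.05, 4.25 and 5.94. Anther and pollen genes AMS, AT5G07230 and AT5G45880 had -0.02, -4.3e-05 and -0.22, at 3.74, 3.65 and 4.03. The flower gene UFO (1 of 9 measured) had 0.0090 at 3.98. The shoot meristem gene CLV3 (1 of 4 measured) had -0.0067 at 3.67. Mean levels per array were 4.67 to 4.85 in wild type against 4.60 to 4.67 in the mutant for the root list (3 of 8 measured), and 3.63 to 3.91 against 3.72 to 3.73 for the anther and pollen list (3 of 5 measured). In the seed list (11 genes) and the phosphate starvation list (9 genes), 0 genes had a probe set matched to them alone. Their signal was therefore not read, which says nothing about its level. Whether cells of another type contributed to the 36 genes was not tested.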

How the data were processed

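Leaf RNA of 6 samples was measured on Affymetrix ATH1 arrays, 1 per sample. What the authors deposited is 1 log2 level for each probe set and array. Per the submitters' processing notes the tools include RMA and Partek; how each was set is not given in the sources used here. No further normalization was applied. RMA is known to compress differences between dim levels, which was not measured here.

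Of 22810 probe sets, 64 controls were left out and 22746 tested with limma 3.58.1 in R 4.3.3 (two-sided, mutant minus wild type, Benjamini-Hochberg adjustment over all probe sets, threshold 0.05), of which 14% were higher and 14.7% lower. Of these, 13513 match 1 gene in the series' probe table, covering 13356 genes; the probe set with the highest mean stood for a gene. None of the 36 genes has a second such probe set or a name suffix for cross-hybridisation. Neighbours follow gene order in TAIR10.1. The fit was tested on simulated data. Python 3.11.15 with pandas 2.3.3 made the tables, and matplotlib 3.10.9 drew the figures.

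The genes and lists were chosen with earlier results of these data known. By the naming rule, text names genes with the largest differences and levels, those nearest the limits, families and list members; all 36 are named, and relatives and neighbours were picked after their values were seen. Roles are given only for genes that the annotation tables name, 4 of the 36. Annotation-word families could not be used, since the gene table holds no descriptions and matched 3 of the 36. Promoter motifs were not run, since no promoter sequences were used here. Arrays sharing a replicate number did not deviate together (r of -0.30, -0.17 and -0.17), so they were treated as unpaired. Alternatives were quantile normalization, median centring, filters, another prior, a replicate block, leaving out each array, and other limits.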

Additional observations from a re-analysis of the deposited data

How the results depend on the processing

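The number of genes rests on the limits. It was 20 with a wild-type limit of 5.0, 21 with a mutant limit of 7.0 and 13 with both, 26 with every array inside the limits, 37 after quantile normalization or median centring, and 35 to 38 without each array in turn. Without each array in turn, 33 to 36 of the 36 genes still met the limits, with 33 when mutant replicate 3 was left out. All 36 genes passed limma in every alternative, including the replicate block, where 2768 probe sets were higher and 2914 lower. The count of 36 follows from how the genes were chosen, so nothing is read from it. Without each array in turn, the count of adjacent genes that rose was 6 to 11, and the count of PUB22-group genes that fell was 0 to 1; that fall was also lost with the replicate block (0). The list counts for senescence and salicylate did not move in the alternatives run for them, which leave out the stricter threshold of 0.01. The cause of these moves was not tested. Relatives, markers and neighbours named in the text had 390 values under alternatives: 364 kept their direction and side of the threshold, 5 no longer passed, 4 passed there alone and 17 changed sign. The changes of sign were all in dim genes that did not pass. Without each array in turn, AT5G07230 ranged from -0.042 to 0.082, CLV3 from -0.064 to 0.070, AMS from -0.14 to 0.060, UFO from -0.049 to 0.073, EXPA18 from -0.063 to 0.080 and SAG101 from -0.12 to 0.011. After median centring AT5G07230 had 0.010 and CLV3 0.0035, and after quantile normalization AT5G07230 had 0.0025.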

Other observations

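Probe sets absent from the series' probe table were not part of the choice. Of 8730 such probe sets, 49 had a wild-type mean below 5.5 and a mutant mean of at least 6.5, beside 42 of 13356 genes. The genes counted are thus fewer than the probe sets with this pattern. With the limits turned around, 33 of the 13356 genes had a wild-type mean of at least 6.5 and a mutant mean below 5.5. In the direction described there were 42.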
